A study of Mus musculus with 14 samples.

Results

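The Nlrp4, Nlrp9 and Nlrp14 genes expressed in the mouse oocyte were followed in single two-cell embryos made by somatic cell nuclear transfer (SCNT). The 8 genes, Nlrp4a, Nlrp4b, Nlrp4c, Nlrp4e, Nlrp9a, Nlrp9b, Nlrp9c and Nlrp14, were chosen by name among the 20242 genes of the expression tables, not by their values. They have 9 of the 25650 transcript entries, since Nlrp9a is listed as a pair of transcripts and each other gene as 1.

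NLRP proteins are NOD-like receptors with a NACHT domain, which binds nucleotides, and leucine-rich repeats. Several members of the family assemble inflammasomes in immune cells, while the Nlrp4, Nlrp9 and Nlrp14 genes of rodents are known mainly from germ cells. Their transcripts accumulate in the growing oocyte and are inherited by the embryo, as those of Nlrp5 (Mater), a subunit of the subcortical maternal complex, are.

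All embryos were B6D2F1, with nuclei of cumulus cells of the same hybrid, were cultured in medium with deionized bovine serum albumin, and were collected as two-cell embryos, per the labels 28 h from nuclear transfer. Of the 14 embryos, 3 Control embryos received neither agent and 3 TSA(0-8h) embryos TSA alone. VC was the only agent of 1 VC(0-8h) embryo and of 2 VC(8-15h) embryos, and both agents were given to 2 embryos, named TSA(0-8h)+VC(0-8h), and to 3 others, named TSA(0-8h)+VC(8-15h). Trichostatin A (TSA), an inhibitor of histone deacetylases, was given at 50 nM for the first 8 h from the start of activation, and vitamin C (VC) at 10 µg/ml from 0 to 8 h or from 8 to 15 h. The comparisons ask whether these agents, given alone or in sequence, change the transcripts of the cloned embryo. Each library came from 1 embryo, and its RNA was amplified by PCR, with no molecular identifiers named in the protocols. Embryos of the same replicate number, with the VC(0-8h) embryo in pool 2, were sequenced in 1 of 3 pools of 5, 6 and 3 embryos, each on a lane of its own per the names of the tables. The authors state 3 independent rounds of nuclear transfer for the TSA(0-8h)+VC(8-15h) embryos. How these rounds relate to the pools is not stated, so that pool and round cannot be told apart.

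Values were RPKM, reads scaled by transcript length and by the embryo's total, with 3021540 to 13589389 reads counted per embryo. On a 3 kb transcript, about the length of these genes, 3 reads were worth from 0.0736 RPKM (most reads) to 0.331 RPKM (fewest reads), a floor that covers counting error only. RPKM is relative to the embryo's total, so that less RNA of a gene and more RNA of other genes cannot be told apart. Inherited Bmp15, an oocyte growth factor, was at 1 RPKM or more in 14 of 14 embryos, and Zfp352 and Tcstv1, made by the two-cell embryo, in 13 each. Other markers of the same lists were seen in few embryos. Among inherited oocyte markers Zar1 was at 1 RPKM or more in 2 embryos and Ooep and H1f8 in 3 each. Among those of the two-cell embryo, Zscan4c, Zscan4f and Usp17la were in 3 each. Of 12 cumulus markers, Fshr, Inha and Inhba were at 0 in every embryo, and the summed level of the list was 0 to 18.4 RPKM in Control, 0 to 144 in TSA(0-8h) and 2.82 to 63.7 in TSA(0-8h)+VC(8-15h) embryos, with Amhr2 the only gene of the list that reached 1 RPKM in more than 1 embryo. Summed inherited oocyte markers were at 280 to 1201 RPKM in Control, 1032 to 1545 in TSA(0-8h) and 297 to 805 RPKM in TSA(0-8h)+VC(8-15h) embryos, and summed markers of the two-cell embryo at 7.38 to 315, 162 to 366 and 341 to 512 RPKM. The part of any of these in the results that follow was not tested. None of the blood or immune markers found in the tables reached 1 RPKM in any embryo.

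All 8 genes lie on mouse chromosome 7 (mm9 coordinates, GENCODE annotation). Nlrp9c, on the minus strand at chr7:27107492-27188719, Nlrp4a at chr7:27220132-27261161 and Nlrp9a at chr7:27320042-27360634 are neighbours, 31412 and 58880 bases apart. Nlrp4c (chr7:5996763-6056751), Nlrp4b (chr7:11273142-11315517), Nlrp9b (chr7:20593372-20658655) and Nlrp4e (chr7:24086294-24147289) precede them on the chromosome, and Nlrp14 lies apart at chr7:114310504-114341616. Within a family the coding sequences are close copies. Nlrp4c and Nlrp4e share 93.9% of their aligned coding bases, Nlrp4a shares 86.3% with Nlrp4c and 85.9% with Nlrp4e, and Nlrp4b shares 78.1% to 79.1% with the others. Among the Nlrp9 genes the identities are 87.5% (Nlrp9a and Nlrp9c), 83.5% (Nlrp9a and Nlrp9b) and 82.3% (Nlrp9b and Nlrp9c). Between families they are 54.2% to 57.5%.

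How far a read of 50 bases can tell the copies apart is shown by an exonic stretch of 50 bases in each Nlrp4 gene, chosen for the median number of variable places among 2124 aligned windows, with bases that differ from Nlrp4a in capitals. They lie at chr7:27229281-27229330 (exon 3 of Nlrp4a), chr7:11295525-11295574 (exon 3 of Nlrp4b), chr7:6012247-6012296 (exon 2 of Nlrp4c) and chr7:24086351-24086400 (exon 1 of Nlrp4e), all on the plus strand.
Nlrp4a: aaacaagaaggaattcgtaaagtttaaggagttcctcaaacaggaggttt
Nlrp4b: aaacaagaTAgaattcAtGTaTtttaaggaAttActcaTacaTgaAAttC
Nlrp4c: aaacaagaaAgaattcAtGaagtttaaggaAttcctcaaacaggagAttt
Nlrp4e: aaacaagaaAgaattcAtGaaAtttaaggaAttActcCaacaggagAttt
Of these 50 places 14 vary, with 13 differences from Nlrp4a in Nlrp4b, 8 in Nlrp4e and 5 in Nlrp4c.

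The same kind of stretch of the Nlrp9 genes, from 2421 windows with capitals marking differences from Nlrp9a, lies in exon 2 of Nlrp9a (chr7:27335837-27335886, plus strand), exon 2 of Nlrp9b (chr7:20604527-20604576, plus strand) and exon 1 of Nlrp9c (chr7:27179202-27179251, minus strand).
Nlrp9a: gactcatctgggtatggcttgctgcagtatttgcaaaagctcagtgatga
Nlrp9b: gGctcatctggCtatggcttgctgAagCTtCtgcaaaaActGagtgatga
Nlrp9c: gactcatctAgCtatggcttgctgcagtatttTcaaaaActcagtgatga
Here 10 places vary, with 8 differences from Nlrp9a in Nlrp9b and 4 in Nlrp9c.

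Other stretches cannot be told apart at all, and the longest run shared by Nlrp4c and Nlrp4e in their coding sequence is shown because a read inside it fits both genes. It lies at chr7:6012317-6012436 (exon 2 of Nlrp4c) and at chr7:24086421-24086540 (exon 1 of Nlrp4e), plus strand.
Nlrp4c and Nlrp4e: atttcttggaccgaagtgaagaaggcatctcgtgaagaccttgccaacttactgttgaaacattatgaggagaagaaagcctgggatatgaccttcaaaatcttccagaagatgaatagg
Of all stretches of 50 bases of each transcript, 41.69% of Nlrp4e and 12.30% of Nlrp4c were found at more than 1 place in the genome. The share was 7.13% in Nlrp9b, 6.07% in Nlrp9a, 3.98% in Nlrp9c and 3.54% in Nlrp4a, and none was found in Nlrp4b or Nlrp14. For Nlrp4e these were 1207 stretches, with places on chromosome 7 and on a contig outside the chromosomes. Its coding sequence shared 276 stretches of 50 bases with that of Nlrp4c and 32 with that of Nlrp4a, so that the share is not one of these copies alone. How reads with several places were counted is not given in the sources used here, so that levels of Nlrp4e and Nlrp4c in particular are uncertain, and the part of these stretches in the values was not tested.

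Nlrp14 (NM_001002894), a gene of oocytes and spermatids whose loss in oocytes is known to arrest early embryos, had the highest median of the 8 genes, 43.5 RPKM over the 14 embryos. In Control embryos it was at 23.3, 1.07 and 114 RPKM in replicates 1, 2 and 3. In TSA(0-8h) embryos it was at 0.403, 67.1 and 137 RPKM, so that both groups held an embryo with 4 to 24 reads and one with 5069 or 5288. The TSA(0-8h)+VC(8-15h) embryos were at 57.4, 47.4 and 39.7 RPKM and the VC(8-15h) embryos at 37.2 and 51.1 RPKM. The TSA(0-8h)+VC(0-8h) embryos were at 0.841 and 79.0 RPKM and the VC(0-8h) embryo at 5.79 RPKM. All 5 embryos given VC from 8 to 15 h thus stood close together, inside the range of the other 9. This was noticed after the values were seen and was not tested, and in the other genes the spread went both ways. The group means ran from 68.2 ± 68.3 RPKM (SD, n = 3) in TSA(0-8h) through 48.2 ± 8.87 (SD, n = 3) with TSA(0-8h)+VC(8-15h), 46.0 ± 59.6 (SD, n = 3) in Control, 44.1 ± 9.82 (SD, n = 2) in VC(8-15h), and 39.9 ± 55.3 (SD, n = 2) for TSA(0-8h)+VC(0-8h), to the VC(0-8h) embryo, and every pair of neighbours in this order overlapped.

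Nlrp4e (NM_001004194), an oocyte gene of the Nlrp4 family, was second, with a median of 33.1 RPKM. The Control embryos were at 22.3, 48.6 and 74.5 RPKM and the VC(0-8h) embryo at 41.2 RPKM. The TSA(0-8h) embryos were at 170.1, 0.114 and 0.403 RPKM, and the TSA(0-8h)+VC(8-15h) embryos at 64.2, 0.228 and 64.9 RPKM. The VC(8-15h) embryos were at 65.7 and 0.045 RPKM and the TSA(0-8h)+VC(0-8h) embryos at 24.9 and 3.07 RPKM. High and near-absent embryos thus stood side by side in 3 groups, whereas the lowest Control embryo was at 22.3 RPKM. The lowest value rests on 1 read and the highest on 1738.

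Nlrp4a (NM_172896) was the only one of the 4 Nlrp4 genes with more than 3 reads in every embryo, at 0.514 to 45.7 RPKM. It was high in Control replicate 3 (45.7 RPKM), TSA(0-8h)+VC(8-15h) replicate 3 (44.2 RPKM) and the VC(0-8h) embryo (27.6 RPKM). In the other Control embryos it was at 2.06 and 1.30 RPKM, in the other TSA(0-8h)+VC(8-15h) embryos at 3.61 and 1.48 RPKM, and in TSA(0-8h) embryos at 0.741, 0.644 and 3.55 RPKM. It was at 15.4 and 1.83 RPKM in VC(8-15h) and at 0.514 and 11.9 RPKM in TSA(0-8h)+VC(0-8h) embryos. The TSA(0-8h) group had the lowest mean, 1.64 ± 1.65 RPKM (SD, n = 3), within the range of its neighbour in the order.

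Nlrp4b (NM_172481) was near absent in most embryos and high in a few. It was at 101 RPKM in TSA(0-8h) replicate 3, where 3881 reads were counted, but had 2 reads in replicate 1 and 0 in replicate 2 of the same group. The other embryos above 10 RPKM were VC(8-15h) replicate 1 (35.2 RPKM) and TSA(0-8h)+VC(8-15h) replicate 3 (23.1 RPKM), and 8 of the 14 embryos had 0 to 3 reads. The 3 embryos of pool 3 were at 6.25 to 101 RPKM, while the median was 0.202 RPKM in pool 1 and 0.0223 RPKM in pool 2. Pool 3 also had the highest median of Nlrp4a (44.2 RPKM), Nlrp14 (114 RPKM) and Nlrp4e (64.9 RPKM, beside 64.2 in pool 1). Nlrp4c and the Nlrp9 genes had theirs in pool 1 or 2. The libraries of pool 3 held 11753807 to 13589389 reads, and the part of pool and depth in these values was not tested.

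Nlrp4c (NM_031389), the closest copy of Nlrp4e, was the lowest of the 8 genes. It reached 1 RPKM in 3 embryos, Control replicates 1 (7.96 RPKM) and 3 (2.89 RPKM) and TSA(0-8h)+VC(8-15h) replicate 1 (9.55 RPKM), and the other 11 had 0 or 1 read each. Among the 8 embryos with more than 400 Nlrp4e reads (409 to 3425), 5 had 0 or 1 Nlrp4c read and the highest had 156. TSA(0-8h) replicate 1, for example, had 1738 reads of Nlrp4e and 1 of Nlrp4c.

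**Figure D1:**
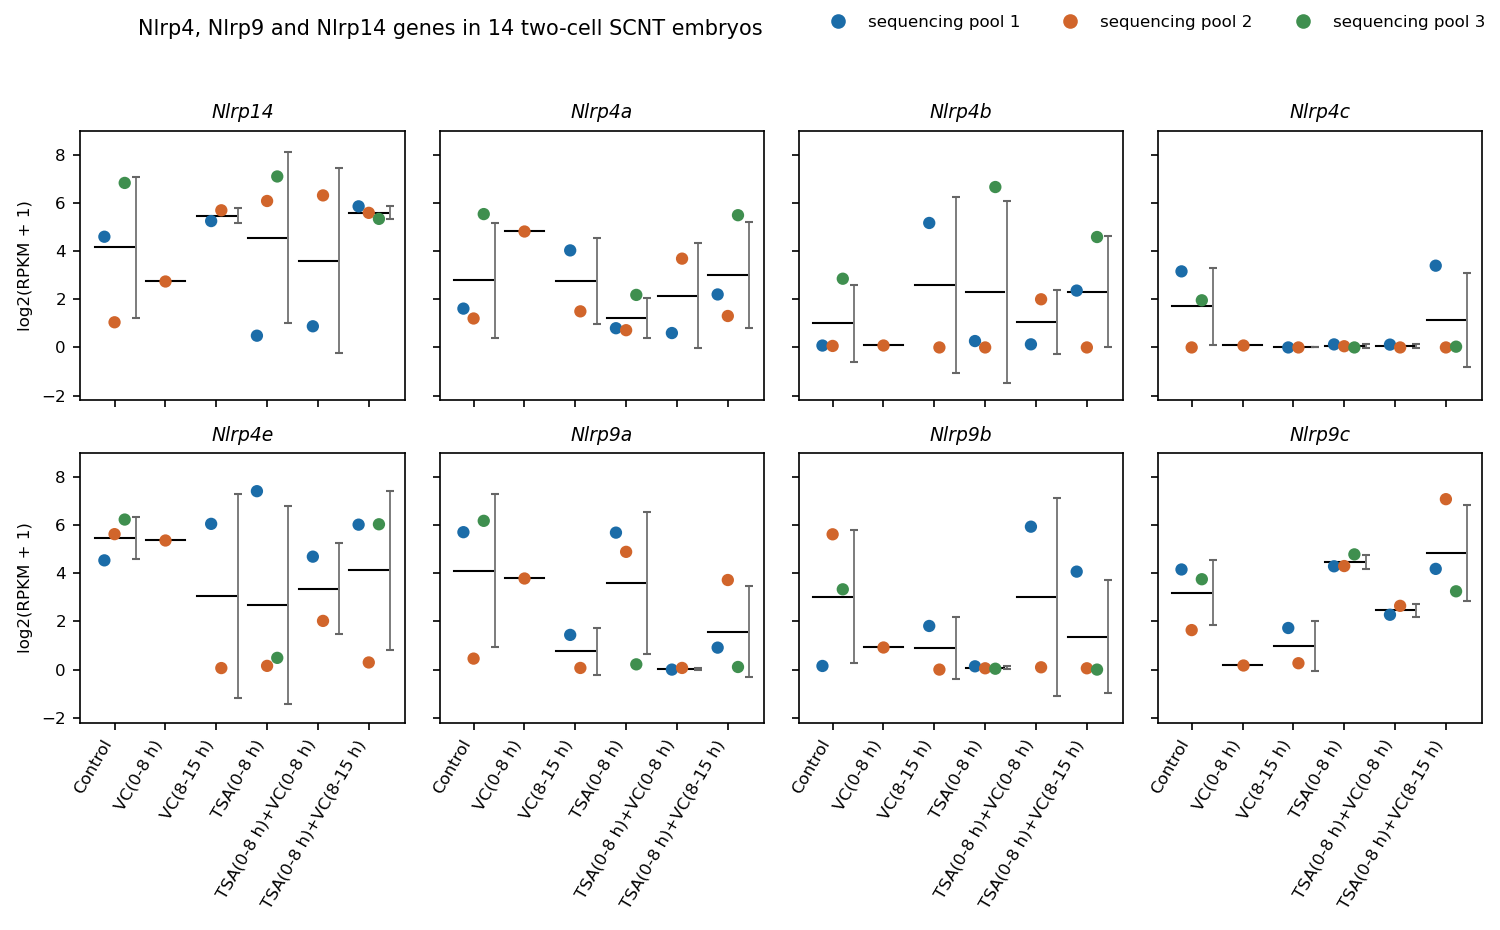
Level of each gene in each of the 14 embryos as log2(RPKM + 1), by treatment, coloured by sequencing pool; horizontal lines are group means and grey bars the SD of groups of 2 or 3. For Nlrp4e and Nlrp14, several groups hold embryos at both ends of the range. The 5 embryos given VC(8-15h) lie between 37.2 and 57.4 RPKM for Nlrp14, a pattern noticed after the values were seen and not tested.

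The Nlrp9 genes are oocyte genes too, and Nlrp9b is also known from the intestinal epithelium, where it takes part in an inflammasome. Nlrp9c (NM_001042612) was the Nlrp9 gene detected most often, with 1 RPKM or more in 12 embryos and a median of 10.5 RPKM. It was at 18.6, 18.8 and 26.7 RPKM in TSA(0-8h) embryos, against 16.9, 2.12 and 12.5 RPKM in Control embryos. Every TSA(0-8h) embryo was thus above every Control embryo. The TSA(0-8h)+VC(8-15h) embryos were at 17.2, 135 and 8.55 RPKM and the TSA(0-8h)+VC(0-8h) embryos at 3.86 and 5.28 RPKM. Without TSA, the VC(8-15h) embryos were at 2.32 and 0.201 RPKM and the VC(0-8h) embryo at 0.156 RPKM, the lowest level of all. Over all groups, the 8 embryos given TSA ranged from 3.86 to 135 RPKM with a median of 17.9, and the 6 without from 0.156 to 16.9 RPKM with a median of 2.22, and these ranges overlapped.

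Nlrp9a (NM_001048220) was at 51.5, 0.373 and 71.8 RPKM in Control and at 50.8, 28.8 and 0.163 RPKM in TSA(0-8h) embryos. In the 5 embryos given VC(8-15h) it was at 1.72 and 0.0487 RPKM with VC alone and at 0.883, 12.2 and 0.0781 RPKM after TSA. The VC(0-8h) embryo was at 13.1 RPKM, and the TSA(0-8h)+VC(0-8h) embryos had 0 and 2 reads. The ranges of embryos with and without VC(8-15h) overlapped, 0.0487 to 12.2 RPKM against 0 to 71.8 RPKM. The second Nlrp9a entry (NM_001048219) was at 199 RPKM in TSA(0-8h)+VC(0-8h) replicate 2, where the first was at 0.0488 RPKM, at 1.42 RPKM in the VC(0-8h) embryo, and at 0 in the other 12. The smallest length at which both values are whole reads is 165 bases, at which they are 430 reads and 1 read, against 3127 bases for the first entry, and the length itself is not given in the tables.

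Nlrp9b (NM_194058) was high in 3 embryos of different groups, at 60.5 RPKM in TSA(0-8h)+VC(0-8h) replicate 1, 48.4 in Control replicate 2 and 15.8 in TSA(0-8h)+VC(8-15h) replicate 1. Control replicate 3 was at 9.11 RPKM and VC(8-15h) replicate 1 at 2.52 RPKM. All 3 TSA(0-8h) embryos had 1 read each, and 8 embryos had 0 to 3. Nlrp9b did not follow its close copies from embryo to embryo. Control replicate 2 had 1110 reads of Nlrp9b, 8 of Nlrp9a and 44 of Nlrp9c, whereas Control replicate 1 had 2, 873 and 277. Of the 4 embryos with over 400 Nlrp9a reads, 3 had 0 to 3 reads of Nlrp9b.

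**Figure D2:**
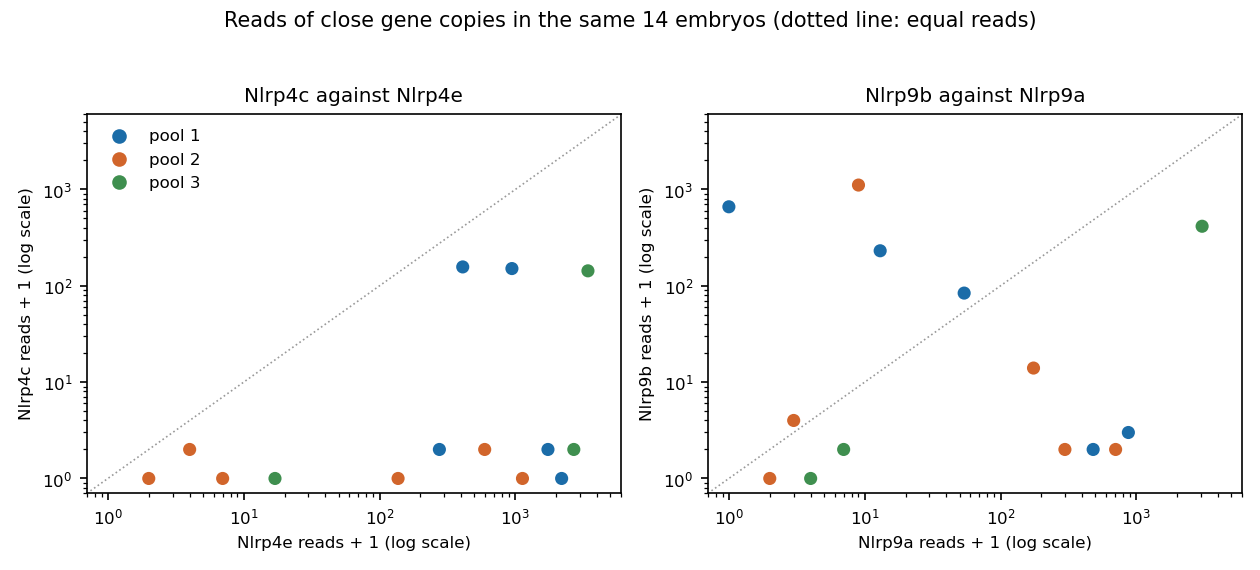
Reads of Nlrp4c against Nlrp4e (left) and of Nlrp9b against Nlrp9a (right) in each embryo, on log scales after adding 1 read, coloured by sequencing pool; the dotted line marks equal reads. Embryos with 409 to 3425 Nlrp4e reads had 0 to 156 Nlrp4c reads, and 1 embryo, Control replicate 3, had over 400 reads of both Nlrp9a and Nlrp9b.

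Seen by embryo, a different gene of the set led from one embryo to the next. The second Nlrp9a entry is left out here and in the sums. The leading gene was Nlrp14 in VC(8-15h) replicate 2, TSA(0-8h) replicates 2 and 3, TSA(0-8h)+VC(0-8h) replicate 2 and Control replicate 3, and Nlrp4e in 6 others. In TSA(0-8h)+VC(0-8h) replicate 2 the left-out Nlrp9a entry stood above Nlrp14, so that Nlrp9a leads there if it is counted. Nlrp9a led in Control replicate 1, Nlrp9b in TSA(0-8h)+VC(0-8h) replicate 1 and Nlrp9c in TSA(0-8h)+VC(8-15h) replicate 2. In VC(8-15h) replicate 2, Nlrp14 made up 96% of the summed level of the 8 genes and was the only one at 10 RPKM or more, whereas in Control replicate 3 all 8 had more than 100 reads and 5 were at 10 RPKM or more. The summed level ran from 53.2 RPKM to 336 RPKM. It was 102 to 336 RPKM in Control, 116 to 269 in TSA(0-8h) and 173 to 196 in TSA(0-8h)+VC(8-15h) embryos, so that the last group lay inside the range of the others.

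**Figure D3:**
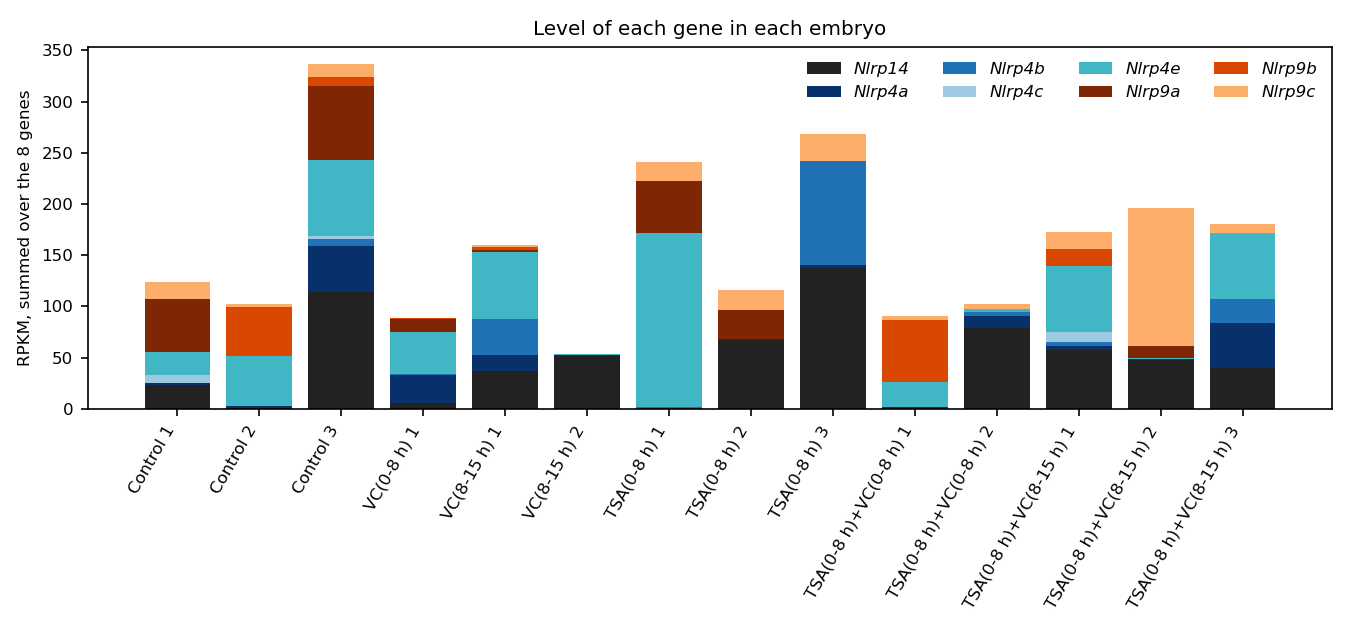
RPKM of the 8 genes stacked for each embryo (the second Nlrp9a entry is left out), from 53.2 RPKM in VC(8-15h) replicate 2 to 336 RPKM in Control replicate 3. The colours show that the leading gene differs between embryos of 1 treatment.

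Levels of this kind, high in some embryos and near absent in others, were common in the tables. Of the 112 values of the Nlrp genes, 34 (30.4%) were at 0 to 3 reads, 25 (22.3%) at 4 to 100 and 53 (47.3%) above 100. Over the 8238 transcript entries with recovered reads and at least 1 RPKM in at least 3 embryos, the shares were 32.6%, 22.9% and 44.4%. The standard deviation of log2(RPKM+1) over the 14 embryos was 1.23 (Nlrp4c) to 2.70 (Nlrp4e), against a median of 2.17 over 8249 entries. The genes were at 1 RPKM or more in a median of 8.5 embryos and those entries in a median of 7. No gene of the set was at 1 RPKM or more in all 14 embryos, as 848 entries (10.3% of the 8249) were. Spearman correlations between the genes over the 14 embryos, a description of values that share library and depth, had a median of 0.14 over 28 pairs and ran from -0.41 (Nlrp9b and Nlrp14) to 0.61 (Nlrp4a and Nlrp4b).

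None of the 8 genes passed the test in any comparison of treatments with all embryos in the fit. In each comparison log2(RPKM+1) was fitted with limma across all entries that passed a filter, and p-values were adjusted by the Benjamini-Hochberg method with a threshold of 0.05. Differences are on the log2(RPKM+1) scale, which understates changes at low levels. The pairwise filter kept entries at 1 RPKM or more in all 3 embryos of either group, and the 14-embryo filter those at 1 RPKM or more in at least 3 embryos. Nlrp4b, Nlrp4c, Nlrp9a and Nlrp9b passed none of the pairwise filters.

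In TSA(0-8h)+VC(8-15h) embryos against Control, 4 of the 8 genes passed the filter and 0 were called, against 0.0293% of 3416 entries. At an unadjusted p under 0.05 there were 0 of 4, against 18.4%, and 0 of 4 had groups that did not overlap, against 22%. With 3 embryos in each group, the difference was 1.44 ± 1.57 in Nlrp14 (SE, limma adjusted p = 0.676) and 1.66 ± 1.72 in Nlrp9c (limma adjusted p = 0.655). It was 0.22 ± 1.69 in Nlrp4a and -1.35 ± 1.67 in Nlrp4e. Nlrp4e passed the filter through the Control group alone, which favoured a difference below 0. The median of the 4 was 0.83, beside 0.78 over all entries tested. Within pools, the difference in Nlrp14 was 1.26, 4.55 and -1.50 in pools 1, 2 and 3, and that in Nlrp4e was 1.48, -5.34 and -0.20.

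Between TSA(0-8h) and Control embryos, 4 genes passed and 0 were called, against 0.119% of 2529 entries, and 0 were at an unadjusted p under 0.05, against 15.2%. Nlrp9c, with a difference of 1.28 ± 2.00 (SE, limma adjusted p = 0.839) that was above 0 in 3 of 3 pools, was the 1 gene of the 4 whose groups did not overlap, against 18.5% of entries. The difference was 0.40 ± 2.15 in Nlrp14, -1.55 ± 1.24 in Nlrp4a and -2.78 ± 2.17 in Nlrp4e. Nlrp4a was lower in the TSA(0-8h) embryo in 3 of 3 pools, with differences of -0.82, -0.49 and -3.36, while Nlrp4e differed by 2.88 in pool 1 and by -5.48 and -5.75 in pools 2 and 3. Nlrp4a, Nlrp4e and Nlrp14 passed the filter through the Control group alone, which favoured differences below 0. Nothing is thus read from the agreement of the pools in Nlrp4a. The median of the 4 was -0.58, beside -0.38 over all entries. Without Control replicate 3 the difference in Nlrp4a was -0.18, and without TSA(0-8h) replicate 1 or 2 that in Nlrp4e was -5.15 or -1.52. Nlrp4c passed the filter only without Control replicate 2, the Control embryo in which it had 0 reads, and then through the Control group alone, so that the filter set the direction of its value (-2.50 ± 0.48, SE, limma adjusted p = 0.026), from which nothing is read.

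Between TSA(0-8h)+VC(8-15h) and TSA(0-8h) embryos, 3 genes passed and 0 were called, against 0% of 3243 entries. None was at an unadjusted p under 0.05 (18.6% of entries) or had groups that did not overlap (21.8%). The difference was 1.77 ± 1.18 in Nlrp4a (SE, limma adjusted p = 0.48), above 0 in 3 of 3 pools, 1.04 ± 1.75 in Nlrp14 and 0.38 ± 1.64 in Nlrp9c. Nlrp4a and Nlrp14 passed the filter through the TSA(0-8h)+VC(8-15h) group alone, which favoured differences above 0. Nothing is thus read from the agreement of the pools in Nlrp4a. Without TSA(0-8h)+VC(8-15h) replicate 3, the difference in Nlrp4a was 0.52. The median of the 3 was 1.04, beside 1.18 over all entries. The 3 comparisons share embryos and are not independent. The median over all entries moved to -0.05, 0.07 and -0.06 when the values were scaled by median ratios, so that the differences are given beside it.

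All 8 genes entered the fit of the 14 embryos with TSA and VC as terms. For any TSA(0-8h) against none, 0 of 8 were called (0.0242% of 8249 entries) and 0 were at an unadjusted p under 0.05 (4.59%). The difference was 2.39 ± 1.29 in Nlrp9c (SE, limma adjusted p = 0.974), -1.27 ± 1.37 in Nlrp4e, -1.14 ± 1.36 in Nlrp4a and 0.39 ± 1.22 in Nlrp14. In the other genes it lay between -0.74 (Nlrp9b) and 0.68 (Nlrp4b). The median of the 8 was -0.51, beside -0.015 over all entries.

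For any VC(8-15h), or late VC, against no VC, 0 of 8 were called (0.0242%) and 0 were at an unadjusted p under 0.05 (6.32%). The difference was -2.54 ± 1.56 in Nlrp9a (SE, limma adjusted p = 0.819) and 1.15 ± 1.36 in Nlrp14. The median of the 8 was -0.21, beside 0.41. For any VC(0-8h), or early VC, against no VC, with 3 embryos of which 1 without TSA, 0 of 8 were called (0%) and 0 were at an unadjusted p under 0.05 (6.96%). Nlrp9c stood at -2.51 ± 1.69 (SE, limma adjusted p = 0.833) and Nlrp9a at -2.45 ± 1.83, and the median of the 8 was -0.89, beside 0.64. The second Nlrp9a entry did not pass the filter, and without a filter it stood at 2.89 ± 1.23 (SE, limma adjusted p = 0.623).

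**Figure D4:**
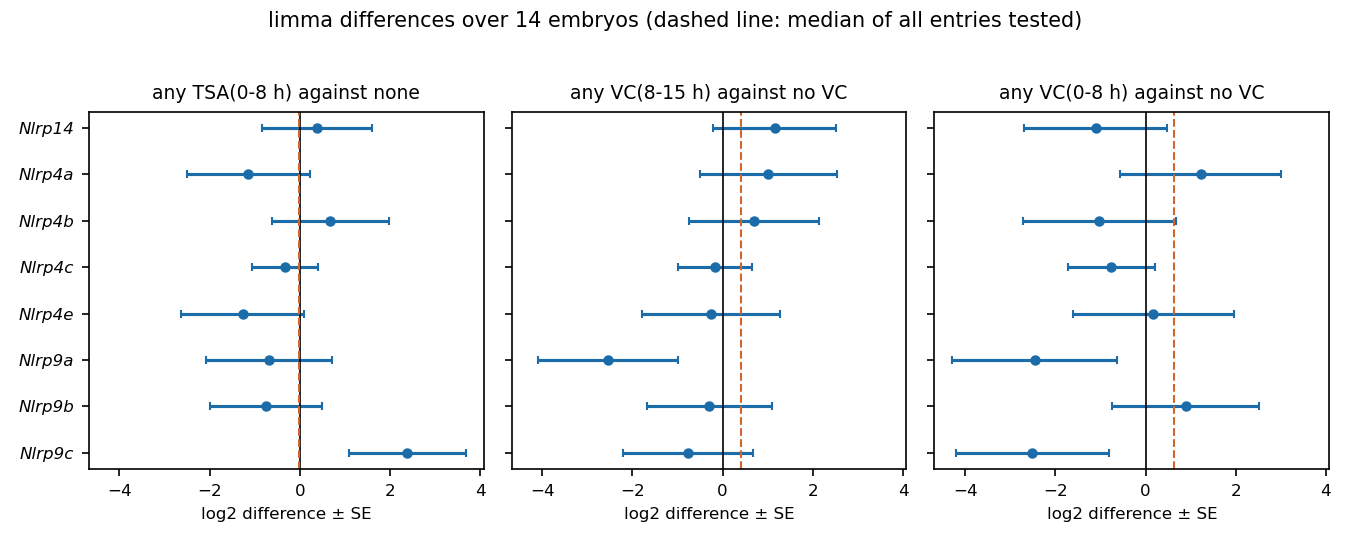
Differences in log2(RPKM + 1) with their SE for the 8 genes in the limma fit of 14 embryos, for TSA, late VC and early VC; the dashed line is the median of the 8249 entries tested. The differences farthest from 0, Nlrp9c with TSA (2.39), Nlrp9a with late VC (-2.54) and Nlrp9c with early VC (-2.51), are each within 2 SE of 0.

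A test for any difference among the 6 treatments called 0 of 8 genes (0.0485% of entries), with 0 at an unadjusted p under 0.05 (4.75%), and the limma adjusted p was 0.974 to 0.984. In the interaction of TSA(0-8h) with VC(8-15h) over 11 embryos, 0 of 8 genes were called (0% of 7124 entries) and 0 were at an unadjusted p under 0.05 (4.39%). The interaction was -0.27 ± 2.67 in Nlrp14, 3.84 ± 3.16 in Nlrp4e and 2.79 ± 1.77 in Nlrp4c (SE, limma adjusted p = 0.891 for the last, the smallest of the 8). With limma-voom on recovered reads, 0 genes were called or at an unadjusted p under 0.05 in each of the 7 comparisons that do not involve the interaction. The genes tested there were 4, 4 and 3 in the pairwise comparisons, in the order of the report, and all 8 in the others. Ordered by group mean, the 8 genes give 40 pairs of neighbouring treatments, of which 34 overlapped and 6 did not, against 12.3% of 41245 such pairs over all entries. Of the 6, 4 involved the single VC(0-8h) embryo, and the other 2 were TSA(0-8h) above Control and TSA(0-8h)+VC(0-8h) above VC(8-15h), both for Nlrp9c.

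The genes whose levels followed those of the set most closely were sought among 2781 genes at 1 RPKM or more in at least 10 embryos, by Spearman correlation over the 14 embryos as a description. For Nlrp14 they were Mphosph6 (0.91), Tanc2 (0.82), Smad3 (0.79), Tyw1 (0.79) and Dlg1 (0.78). For the summed Nlrp4 genes they were Cttnbp2nl (0.86), Limk1 (0.79), Slc6a15 (0.79), Rc3h1 (0.78) and Srsf4 (0.76). For the summed Nlrp9 genes they were Gpat4 (0.92), Oog1 (0.89), Colec12 (0.77), Gdap1 (0.74) and Pramel51 (0.74). Oog1 is known as an oocyte gene.

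Other genes of the NOD-like receptor family were present too. Of 22 listed, 20 were in the tables and 13 reached 1 RPKM in any embryo. The highest medians were those of Nlrp5, at 17.0 RPKM (0.124 to 131), and Nlrp4f, at 8.22 RPKM (0.0938 to 155). Of 7 that entered the 14-embryo fit, 0 were called by limma in any of its comparisons and 0 were at an unadjusted p under 0.05, with median differences of -0.36 for TSA, -0.04 for late VC and 0.64 for early VC. In the pairwise comparison of TSA(0-8h)+VC(8-15h) with TSA(0-8h) embryos, Nlrp4g, another Nlrp4 gene, stood at an unadjusted p under 0.05, as 18.6% of entries did. Its levels were 53.3, 1.58 and 15.3 RPKM with TSA(0-8h)+VC(8-15h), against 0.349, 0.765 and 0.0897 RPKM with TSA alone, with a difference of 3.26 ± 1.15 (SE, limma adjusted p = 0.123). Nlrp4g passed the filter through the TSA(0-8h)+VC(8-15h) group alone, which favoured a difference above 0, so that nothing is read from it. Control embryos were at 34.35, 0.614 and 10.4 RPKM. Of 10 inflammasome partners, Casp4, Il1b, Il18 and Mefv were at 0 in all embryos, and 4 reached 1 RPKM in any. The highest medians were 1.34 RPKM for Txnip, a regulator of the redox state that binds Nlrp3, and 0.537 RPKM for Gsdmd, which forms membrane pores. The 4 genes tested in the 14-embryo fit gave 0 calls and 0 at an unadjusted p under 0.05, with medians of 0.27, 1.46 and 0.24 for TSA, late VC and early VC.

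Of 20 maternal factors, 19 reached 1 RPKM in some embryo and 6 did in all 14. Zbed3, linked to the subcortical maternal complex, had a median of 1221 RPKM (309 to 3072) and Bmp15 one of 253 RPKM (91.3 to 520). Limma called 0 of the 17 tested in the 14-embryo fit. For TSA, their median difference was 0.12, and 1 gene was at an unadjusted p under 0.05 (Ooep, 2.27). For late VC the median was 0.54, with 1 such gene (Dppa3, 2.73), and for early VC 0.67, with 0. In the pairwise comparisons Btg4, which acts in the decay of maternal mRNA, was at an unadjusted p under 0.05 in both treated groups against the shared Control embryos, with differences of -1.93 ± 0.69 for TSA(0-8h) and -1.22 ± 0.52 for TSA(0-8h)+VC(8-15h) and limma adjusted p of 0.148 and 0.209. Oosp1 was at 2.94 ± 1.29 (SE, limma adjusted p = 0.264) for TSA(0-8h). Of 8 oocyte transcription factors, Foxo3 (median 85.6 RPKM) and Taf4b (12.3 RPKM) were highest, Figla and Sohlh2 were at 0 throughout, and 0 of 3 tested in the 14-embryo fit were called or at an unadjusted p under 0.05.

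Of 3 genes whose proteins are reported with Nlrp14, the importin Kpna2 was at 1 RPKM or more in all embryos, with a median of 185 RPKM, and the most abundant entry of Uhrf1, a cofactor of DNA methylation, had a median of 0.734 RPKM. The level of Kpna2 in TSA(0-8h)+VC(8-15h) embryos differed from that in Control embryos by 3.73 ± 1.13 (SE, limma adjusted p = 0.11), at 229, 243 and 185 RPKM against 16.5, 4.003 and 50.2 RPKM. These groups did not overlap, as those of 22% of the entries tested, whereas TSA(0-8h) embryos were at 9.42, 618 and 9.14 RPKM. Kpna2 was also at an unadjusted p under 0.05 for late VC (2.51 ± 0.98) and early VC (3.29 ± 1.15), and Uhrf1 for TSA (-4.01 ± 1.37), with limma adjusted p of 0.725, 0.482 and 0.974. Uhrf1 was at 0 to 0.816 RPKM in the 8 embryos given TSA, and in the 6 without at 0.779 to 685 RPKM. It thus passed the filter through embryos without TSA alone, which favoured a difference below 0. Nothing is read from its difference. None of the 3 genes passed the threshold in any comparison.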

How the data were processed

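RNA of single zona-free embryos was extracted, 2 of 9 µl were amplified with the Ovation Single Cell RNA-Seq System and the libraries were sequenced as single 50-base reads. The authors trimmed reads, mapped them to mm9 with TopHat (TopHat2 per the labels), counted reads on exons and deposited RPKM values, 1 entry per RefSeq transcript. Symbols were assigned from RefSeq (GRCm38.p6, names only) for 25250 of 25650 entries. Each entry was tested on its own, and a listed gene was described by its entry with the highest mean.

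Whole reads were recovered because RPKM values step by what 1 read is worth: of 14532 entries seen in 2 or more embryos, 14521 had a length that was a whole number of bases (within 0.0001), and these entries held 89.19% to 93.93% of each embryo's reads. limma 3.58.1 (R 4.3.3) was run on log2(RPKM+1) over all entries that passed the filter, with eBayes trend and Benjamini-Hochberg adjustment. Copies of 50-base stretches were counted on both strands of NCBIM37 (mm9), with GENCODE vM1 transcripts. Python 3.11.15 was used otherwise. P-values measure the spread between embryos with 1 library each, so that embryo and amplification cannot be told apart. The main fits had no term for the pool.

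The genes and lists were chosen with earlier results of these data known. Named were all 8 genes with every entry, of each list the genes past the threshold or otherwise the 2 of highest median RPKM, and the 5 genes most alike in Spearman correlation; list genes at an unadjusted p under 0.05 were named after their values were seen. The alternatives are given in the closing section. Of the markers and lists, Nlrp4d, Nlrp6, Duxf3 and Cd68 matched no entry and were not analysed here.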

Additional observations from a re-analysis of the deposited data

How the results depend on the processing

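Of the 8 genes, 0 were called in any comparison under another pseudocount (0.1), filter, scaling, summed entries, limma without trend, limma-voom, a replicate block or, where run, 1 fit of all embryos. Without 1 embryo the count was 0 to 1 for TSA(0-8h) against Control (Nlrp4c, without Control replicate 2) and 0 otherwise. For TSA(0-8h)+VC(8-15h) against Control without the same embryo, 6 genes including Nlrp4c were tested and 0 were called. Same-numbered embryos shared a sequencing pool, and whether they also shared a round of nuclear transfer is not stated. Their deviations from the group means correlated at -0.05 to 0.03. With the pairing as a replicate block the differences kept their direction, except that of Nlrp4e for early VC (-0.20). Without 1 embryo, differences that kept their sign also moved, as that of Nlrp4a for TSA(0-8h) against Control (-2.35 to -0.18). Of the differences under other settings 317 kept direction and call and 12 turned, for causes that were not tested. Under median-ratio scaling these were Nlrp4a (-0.37) for TSA(0-8h)+VC(8-15h) against Control, Nlrp9c (-0.86) and Nlrp14 (-0.18) for TSA(0-8h)+VC(8-15h) against TSA(0-8h) and Nlrp4e (-0.60) for early VC. Under quantile normalization they were Nlrp4a (-1.35, -0.23, -0.035 and -0.54 for the pairwise comparisons against Control and against TSA(0-8h), late VC and early VC), Nlrp9c (-1.08, against TSA(0-8h)) and Nlrp4e (-0.80, early VC). With entries summed, Nlrp9a was at 0.039 for TSA. Without 1 embryo, 362 kept direction and 31 turned. Their ranges were, for TSA(0-8h)+VC(8-15h) against Control, Nlrp4a -1.03 to 1.59, Nlrp4e -2.31 to 0.56 and Nlrp14 -0.12 to 2.78. For TSA(0-8h) against Control Nlrp14 ran from -1.16 to 2.44. For TSA(0-8h)+VC(8-15h) against TSA(0-8h) they were Nlrp9c -0.74 to 1.17 and Nlrp14 -0.996 to 2.31. For TSA they were Nlrp4b -0.235 to 1.49, Nlrp9a -1.42 to 0.081 and Nlrp14 -0.22 to 1.18. For late VC they were Nlrp4b -0.29 to 1.82, Nlrp4c -0.37 to 0.115, Nlrp4e -1.04 to 1.13 and Nlrp9b -1.09 to 0.445. For early VC they were Nlrp4b -1.54 to 0.15, Nlrp4e -0.66 to 1.17, Nlrp9b -1.04 to 2.18 and Nlrp14 -2.54 to 0.18. Unadjusted p under 0.05 appeared in some settings, as for Nlrp9c with TSA without a filter (limma adjusted p = 0.803) and Nlrp9a with late VC under quantile normalization (limma adjusted p = 0.954). Counts over all entries moved far more. In the pairwise comparisons, taken in the order of the report, 1, 3 and 0 entries were called, against 118, 104 and 195 with a pseudocount of 0.1, 211, 127 and 241 at a minimum of 5 RPKM, 335, 162 and 309 by limma-voom and 20, 4 and 196 with the replicate block. The test among the 6 treatments went from 4 to 779 entries without a filter and 39 by limma-voom, and early VC from 0 to 31 by limma-voom.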

Other observations

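Nlrp14 stood within a narrow range in the 5 embryos given VC from 8 to 15 h, with or without TSA, a pattern noticed after its values were seen among 8 genes and several ways of grouping the embryos. The standard deviation of log2(RPKM+1) was 0.25 over these 5 embryos and 2.74 over the other 9, and the median level was 47.4 RPKM against 23.3 RPKM. The 5 embryos came from all 3 sequencing pools. In the other genes the same standard deviation went both ways. It was larger over these 5 embryos in Nlrp4b, Nlrp4c, Nlrp4e and Nlrp9c (2.59 against 1.53 in Nlrp9c), and smaller in Nlrp4a, Nlrp9a and Nlrp9b. The difference in spread was not tested, nor set beside that of all entries.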
